A study of Mus musculus with 9 samples.

Results

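The 41 genes described here encode the contractile actin cytoskeleton and the adhesions that anchor it: actins, non-muscle myosin II, tropomyosins, filament crosslinkers, regulators of actin assembly, the ROCK and LIM kinases, the ezrin family and components of focal adhesions. They were chosen by symbol from a list, all 41 matched a row among the 51912 genes of the count table, and all 41 passed the filter on low counts among 17289 genes tested. RNA was sequenced from mammary tumour organoids of FVB/NJ mice carrying MMTV-PyMT, in which a mammary-active viral promoter drives the polyoma middle T oncogene, and the (R26)pCA::mT/mG reporter, which changes fluorescent colour after Cre recombination. The WT group (4 samples) was Cdh1+/+ and the E-cad-KO group (5 samples) was Cdh1fl/fl. All 9 samples received adenoviral Cre overnight and then spent 48 h in collagen I with FGF2, so Cre exposure, oncogene and reporter are common to both groups. The labels used here give no age for the mice. Cre acts only in cells that the virus reaches, and RNA came from whole gels, so untransduced and non-epithelial cells can contribute to the counts.

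Non-muscle myosin II pulls on actin filaments that tropomyosins coat and that alpha-actinins and filamin crosslink. In epithelia this machinery is tied to E-cadherin through the catenins at cell-cell junctions and to integrins through talin, paxillin and their partners at contacts with the matrix. The ROCK kinases switch the motor on, and many genes of this machinery are targets of the serum response factor SRF, whose MRTF cofactors are held back by free actin monomers.

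Library totals ran from 44890302 to 64763645 counts. Levels are given as CPM, counts scaled to a common library size with TMM factors, with SDs over samples. The targeted gene Cdh1 ran from 150.3 to 246.5 CPM in WT and from 79.0 to 118.3 CPM in E-cad-KO, with no overlap. WT 4 stood apart from the other WT samples: it held the largest summed level of macrophage markers (559 CPM against 385 to 436 CPM in the other WT samples) and the smallest of mammary epithelial markers (3911 CPM against 4561 to 5470 CPM). WT 1 was extreme for other markers, with the highest myoepithelial sum of all samples (11480 CPM) and the lowest fibroblast sum (67.4 CPM). No label ties a sample to an animal, and the p-values therefore cover only sample-to-sample spread, which may be partly technical.

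As a set, the cytoskeletal and adhesion genes stood slightly higher in E-cad-KO. The log2 fold change was positive for 39 of 41, against 48.0% of all genes tested, and its median was 0.25, against -0.01 over all genes. Of the 41, 5 rose by edgeR's quasi-likelihood test (adjusted p under 0.05 over all genes tested) and none fell. Among all genes tested, 1.41% were called, 0.908% as higher and 0.503% as lower. The 5 are the focal adhesion scaffold gene Bcar1, the tropomyosin gene Tpm1, the adhesion and Z-disc adaptor gene Pdlim5, the kinase gene Rock2 and the formin gene Diaph1. At an unadjusted p under 0.05, 26 of 41 were higher and none lower, against 8.74% and 7.99% of all genes. In 11 of 41 genes every E-cad-KO sample lay above every WT sample, against 4.28% of all genes, and in none did every E-cad-KO sample lie below every WT sample, against 3.83% of all genes.

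The differences were small. The fitted fold ran from 0.884 (Limk1) to 1.55 (Fscn1), and among the 5 called genes from 1.21 to 1.31. The 41 genes together took 1.19% to 1.26% of all counts in the WT libraries and 1.37% to 1.48% in the E-cad-KO libraries. The mean of their log2 CPM, each gene centred on its mean over the 9 samples, was -0.13 ± 0.07 for WT and 0.11 ± 0.06 for E-cad-KO (SDs over n = 4 and n = 5), with no overlap between the groups.

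**Figure D1:**
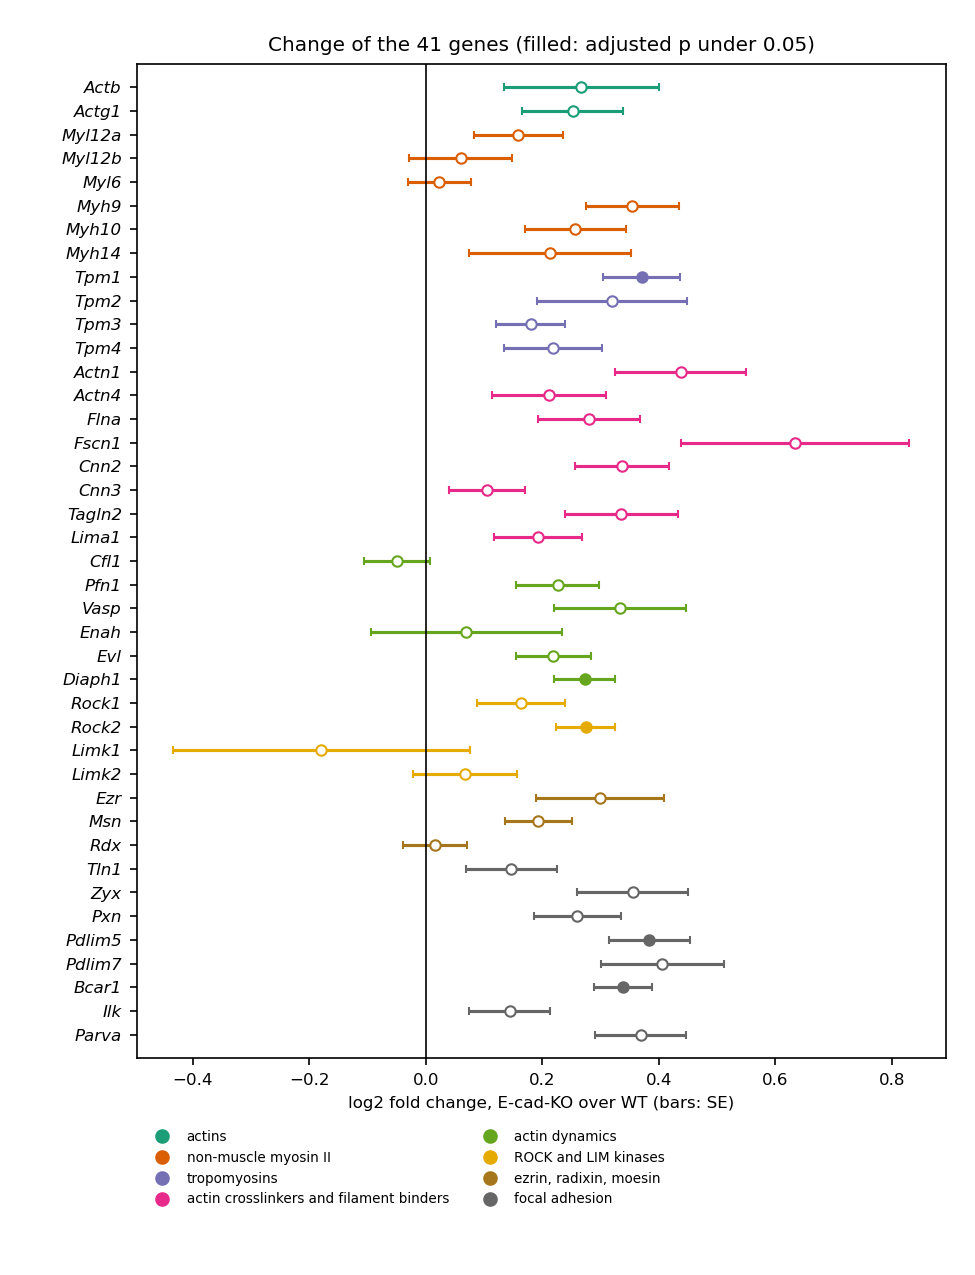
Log2 fold change (E-cad-KO over WT, horizontal axis) of each of the 41 genes, ordered and coloured by role, with bars of 1 standard error and filled points for adjusted p under 0.05. Of the points, 39 lie above 0, and the 5 filled ones lie between 0.27 and 0.38.

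The calls depended on single samples, among the 41 as over all genes tested. With 1 sample left out at a time, edgeR called 4 of the 41 genes without WT 1 or without WT 4, 1 when WT 2 or E-cad-KO 3 or 5 was dropped, and 0 when WT 3 or E-cad-KO 1, 2 or 4 was dropped (24 to 27 at an unadjusted p under 0.05 in those 4 fits). All calls among the 41 in these fits were higher in E-cad-KO. The 4 called without WT 1 were Actn1, Fscn1, Diaph1 and Bcar1, of which 2 were among the 5 called with every sample. Without WT 4 they were Tpm1, Rock2, Pdlim5 and Bcar1, of which 4 were among the 5. Calls over all genes also moved, from 9 without WT 3 to 334 without WT 4, against 244 with every sample. In the 4 fits with 0 of the 41, edgeR called 9 to 54 of all genes. At an unadjusted p under 0.05 those fits held 2438 to 2692 of 17093 to 17472 genes tested. The median log2 fold change over the 41 ran from 0.21 (without WT 4) to 0.28 across the 9 fits. Of the 41 genes, 25 had their lowest level of all 9 samples in WT 4 and 16 their highest in E-cad-KO 2. Without WT 4, 37 of 41 log2 fold changes were positive and 4 genes were called.

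**Figure D2:**
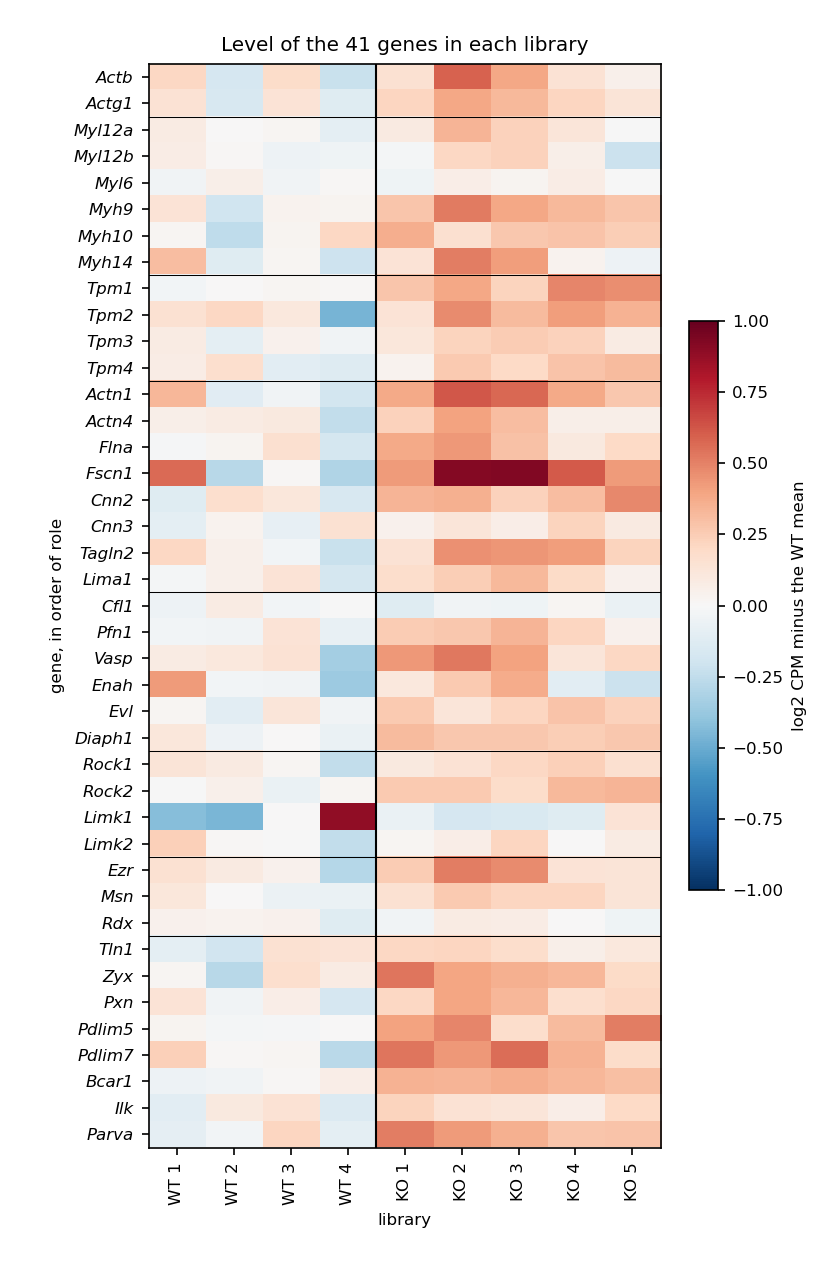
Level of the 41 genes (rows, in order of role, separated by lines) in the 9 libraries (columns; KO 1 to KO 5 are E-cad-KO 1 to 5), as log2 CPM minus the mean of the WT libraries. The E-cad-KO columns are mostly red, WT 4 holds the palest or bluest WT cell for many genes (25 of 41 are lowest there of all 9 samples), and Limk1 in WT 4 goes the other way.

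The cytoplasmic actin genes Actb and Actg1, whose near-identical proteins make up the filaments of these cells, were not called. Actg1 stood at 1265, 1027, 1257 and 1055 CPM in WT 1 to 4 and at 1331, 1499, 1437, 1333 and 1254 CPM in E-cad-KO 1 to 5. Only E-cad-KO 5 came below the highest WT samples, and the fitted log2 difference was 0.25 (SE 0.09, edgeR adjusted p = 0.174). Actb overlapped more, from 815 to 1096 CPM in WT and from 985 to 1432 CPM in E-cad-KO (0.27, SE 0.13, edgeR adjusted p = 0.349). The 2 actin genes share long stretches of coding sequence, so how reads were divided between them depends on the authors' counting.

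A promoter entry of Actg1 holds a CArG box, the sequence bound by SRF. Over the 250 bases before each annotated start (RefSeq, GRCm38.p6, both strands), a perfect box was found upstream of 4 of the 36 matched genes of the set, 11.1%, and of 1.62% of 27025 genes with an entry. Actb, Diaph1, Rock1, Pxn and Parva had no entry. The 4 windows are shown because SRF is the textbook regulator of this gene set. Each is 50 bases, 5′ to 3′ on the strand of the gene, with the box in capitals. They lie at chr11:120348556-120348605 (minus strand), chr10:128493030-128493079 (minus), chr10:79988524-79988573 (plus) and chr15:99820167-99820216 (minus).
Actg1: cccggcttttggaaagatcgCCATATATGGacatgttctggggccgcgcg
Myl6: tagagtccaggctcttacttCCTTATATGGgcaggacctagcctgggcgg
Cnn2: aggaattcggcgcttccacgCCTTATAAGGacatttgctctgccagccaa
Lima1: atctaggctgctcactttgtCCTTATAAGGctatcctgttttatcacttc
The boxes begin 90, 50, 56 and 47 bases before the RefSeq start of the entry. The Actg1 and Cnn2 windows lie just outside the gene as GENCODE M21 annotates it. Those of Myl6 and Lima1 lie wholly inside it and so belong to internal alternative starts, and Myl6 has a further entry. None of these 4 genes was called, and their log2 fold changes spread from 0.02 for Myl6 over 0.19 for Lima1 and 0.25 for Actg1 to 0.34 for Cnn2. A match describes the letters only.

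Among the genes of non-muscle myosin II, all 6 log2 fold changes were positive, none was called, and the median was 0.19. Myh9, the heavy chain of myosin IIA, stood at 341, 269.5, 318 and 316 CPM in WT 1 to 4 and at 376, 444, 406, 389 and 375 CPM in E-cad-KO 1 to 5. Every E-cad-KO sample was above every WT sample, but Myh9 missed the threshold (log2 fold change 0.35, SE 0.08, edgeR adjusted p = 0.0574). limma-voom, run with quality weights for the samples, called it (adjusted p = 0.0307). So did edgeR when only genes with 1 CPM in 4 libraries were tested. Myh10, the heavy chain of myosin IIB, stood at 33.7 ± 4.35 CPM for WT and 40.3 ± 2.07 CPM for E-cad-KO (SDs over 4 and 5 samples; 0.26, edgeR adjusted p = 0.168), and Myh14, that of myosin IIC, spanned 35.2 to 50.3 CPM in WT and 39.1 to 57.8 CPM in E-cad-KO (0.21, edgeR adjusted p = 0.487). The exons of Myh14 overlap an antisense gene. Myl6, the essential light chain, had nearly the same level in both groups, 1126 ± 37.0 and 1145 ± 37.3 CPM (SD, n = 4 and n = 5; 0.02, SE 0.05).

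The regulatory light chain, whose phosphorylation switches the motor on, has a pair of neighbouring genes on chromosome 17. Myl12a stood at a log2 fold change of 0.16 (SE 0.08, edgeR adjusted p = 0.330) and Myl12b at 0.06 (SE 0.09, edgeR adjusted p = 0.796). Their reading frames of 519 bases in GENCODE M21 differ at 18 bases (96.5% identity), with an identical run of 105 bases, and exons of Myl12a overlap a further annotation entry named Myl12b on the same strand. The first 90 coding bases are shown because they make plain how alike the genes are, with differing bases in capitals.
Myl12a: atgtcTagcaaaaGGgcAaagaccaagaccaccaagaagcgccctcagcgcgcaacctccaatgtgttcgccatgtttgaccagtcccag
Myl12b: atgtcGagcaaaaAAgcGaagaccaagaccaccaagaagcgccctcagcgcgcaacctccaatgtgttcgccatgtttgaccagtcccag
Only 4 of these 90 bases differ. The division of counts between Myl12a and Myl12b is therefore uncertain.

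All 4 tropomyosin genes stood higher, and 1, Tpm1, was called. Tropomyosins lie along actin filaments and set which myosins and crosslinkers can bind. Tpm1 (chromosome 9, 67022590 to 67049406, GRCm38) stood at 518, 530.5, 536 and 532 CPM in WT 1 to 4 and at 640.1, 692, 619, 741 and 729 CPM in E-cad-KO 1 to 5. The WT samples lay within a narrow band, all E-cad-KO samples lay above it, and Tpm1 rose by 0.37 on the log2 scale (SE 0.07, edgeR adjusted p = 0.0341). The call held in 1 of 9 fits with a sample left out. Tpm2 (0.32, SE 0.13), Tpm4 (0.22, SE 0.08) and Tpm3 (0.18, SE 0.06) were not called, with edgeR adjusted p of 0.241, 0.223 and 0.155. The lowest Tpm2 level of all was in WT 4, 63.6 CPM against 94.6 to 101.4 CPM in the other WT samples. Without WT 4 the log2 fold change of Tpm2 was 0.19.

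In the promoter entry of Tpm1 the letters GGAATG, the core bound by the TEAD partners of YAP and TAZ, occur once in the 250 bases before the RefSeq start, on either strand, at chr9:67049244-67049289 (minus strand, the core in capitals). This start and the window lie inside the gene as GENCODE M21 annotates it. The window is shown because Tpm1 is the one called gene with an entry that holds it.
Tpm1: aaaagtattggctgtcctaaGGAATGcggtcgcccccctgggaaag
The same core lies upstream of 7 of 36 matched genes of the set, 19.4%, and of 14.4% of all genes with an entry. Bcar1, Pdlim5 and Rock2, the other called genes with an entry, held neither this core nor a CArG box in that window.

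The crosslinkers and filament binders were positive for all 8 genes, with a median of 0.31, the second highest of the 8 roles, and none was called. Actn1, which encodes an alpha-actinin that bundles stress fibres and links them to adhesions, stood at 184, 135, 143 and 129 CPM in WT 1 to 4 and at 190.5, 226, 218, 190.0 and 177 CPM in E-cad-KO 1 to 5. WT 1 lay above E-cad-KO 5 and below the others (0.44, SE 0.11, edgeR adjusted p = 0.0853), and Actn1 was called without WT 1. With all samples limma-voom called Actn1 (adjusted p = 0.0346). Its exons overlap antisense genes. Its paralogue Actn4 stood at 0.21 (SE 0.10, edgeR adjusted p = 0.309).

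Cnn2, a calponin that steadies filaments, stood at 166, 203, 195 and 162 CPM in WT 1 to 4 and at 229, 231, 212, 224 and 252 CPM in E-cad-KO 1 to 5. The groups did not overlap, and Cnn2 missed the threshold (0.34, SE 0.08, edgeR adjusted p = 0.0689). Its relative Cnn3 stood at 0.11 (SE 0.07). The transgelin gene Tagln2 (0.34, edgeR adjusted p = 0.114), the filamin gene Flna (0.28, edgeR adjusted p = 0.139) and the filament-stabilising gene Lima1 (0.19, edgeR adjusted p = 0.230) were not called.

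Fscn1, the fascin that bundles filaments of filopodia, had the largest log2 fold change of the 41, 0.63 (SE 0.20, edgeR adjusted p = 0.139). It stood at 23.6, 13.1, 16.0 and 12.9 CPM in WT 1 to 4 and at 21.3, 30.1, 30.3, 24.3 and 21.4 CPM in E-cad-KO 1 to 5. WT 1 lay among the lower E-cad-KO samples and the other WT samples lay below all of them. Without WT 1 Fscn1 was called, with the largest value over all settings tried, 0.87.

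Of the 6 genes that build, cut or lengthen filaments, 5 had positive log2 fold changes (median 0.22 over the 6) and 1 was called. Diaph1, a formin that grows straight filaments, stood at 47.3, 42.2, 44.0 and 41.8 CPM in WT 1 to 4 and at 54.5, 52.7, 52.7, 51.9 and 52.9 CPM in E-cad-KO 1 to 5. The groups were apart and Diaph1 rose by a log2 fold change of 0.27 (SE 0.05, edgeR adjusted p = 0.0374), a call held in 1 of 9 fits with a sample left out and lost with the filter of at least 1 count (edgeR adjusted p = 0.0600). The filament elongation genes Vasp (0.33, SE 0.11), Evl (0.22, SE 0.06) and Enah (0.07, SE 0.16) were not called, nor was the profilin gene Pfn1 (0.23, SE 0.07), whose product feeds monomers to growing ends. Enah varied most among them, from 72.1 to 124 CPM within WT, and its sign turned without WT 4 (-0.039) and without E-cad-KO 3 (-0.0066).

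Cfl1, cofilin, which severs filaments, had the highest level per kilobase of the 41 in WT, 478 ± 19.3 CPM per kilobase of annotated exon (SD, n = 4). It stood at 1313, 1437, 1331 and 1356 CPM in WT 1 to 4 and at 1249, 1325, 1320.0, 1375 and 1299 CPM in E-cad-KO 1 to 5. The groups overlapped throughout (-0.05, SE 0.06, edgeR adjusted p = 0.723). On the same per-kilobase scale Actg1 came next with 433 ± 48.0, Tpm4 with 426 ± 42.6, Actb with 358 ± 55.9 and Myl6 with 354 ± 11.6 in WT (SD, n = 4). Of neighbours in that order, only Tpm4 and Actb differed by more than the larger of their SDs. At the other end was Limk1, with 1.72 CPM per kilobase in WT and between 455 and 1153 counts in every library.

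Among the ROCK and LIM kinases, Rock2 was called and its paralogue Rock1 was not. ROCK kinases phosphorylate the myosin regulatory light chain and its phosphatase, and they activate the LIM kinases, which in turn inhibit cofilin. Rock2 (chromosome 12, 16894895 to 16987823, GRCm38) stood at 163, 169.7, 157 and 166 CPM in WT 1 to 4 and at 197, 196, 186, 205 and 207 CPM in E-cad-KO 1 to 5. The groups were apart (0.27, SE 0.05, edgeR adjusted p = 0.0343). With upper-quartile scaling Rock2 was not called, and with a sample left out it was called in 1 of 9 fits. Rock1 stood at 0.16 (SE 0.08, edgeR adjusted p = 0.307), or 0.09 without WT 4.

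Limk2, the more abundant LIM kinase transcript, stood at 120.2 ± 16.5 and 126 ± 7.42 CPM (SD, n = 4 and n = 5; 0.07, SE 0.09). Limk1 had the lowest log2 fold change of the 41, -0.18 (SE 0.25, edgeR adjusted p = 0.789). Its WT samples held 8.47, 8.32, 11.4 and 21.1 CPM and its E-cad-KO samples 10.9, 10.2, 10.3, 10.5 and 12.5 CPM. A single sample set the sign: without WT 4 the value was 0.21.

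The ezrin, radixin and moesin proteins tether filaments to the plasma membrane, and ezrin marks the apical surface of epithelial cells. Msn stood at 435, 403, 385 and 384 CPM in WT 1 to 4 and at 446, 479, 466, 465 and 439 CPM in E-cad-KO 1 to 5, apart but not called (0.19, SE 0.06, edgeR adjusted p = 0.123). Ezr overlapped between groups (0.30, SE 0.11, edgeR adjusted p = 0.203), and its lowest level was in WT 4, 159.9 CPM. Rdx was level, 213 ± 11.6 and 216 ± 8.52 CPM (SD, n = 4 and n = 5; 0.02, SE 0.05).

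Focal adhesion genes had the highest median of the 8 roles, 0.35, with all 8 positive, 2 called and 5 with every E-cad-KO sample above every WT sample. Over all genes tested, 0.908% were called higher, and in 4.28% every E-cad-KO sample lay above every WT sample. Bcar1, which encodes the scaffold p130Cas that is phosphorylated when adhesions are stretched, had the smallest p of the set. It stood at 26.6, 26.9, 27.8 and 28.8 CPM in WT 1 to 4 and at 35.1, 34.8, 35.5, 34.6 and 34.0 CPM in E-cad-KO 1 to 5. Each group was tight and the groups were far apart for their spread (0.34, SE 0.05, edgeR adjusted p = 0.0203). The call held in 4 of 9 fits with a sample left out, the most of the 41 genes. Bcar1 lies on chromosome 8 at 111710474 to 111743809 (GRCm38), 5.04 Mb from Cdh1 on the same chromosome. Sequence linked to the floxed alleles and loss of E-cadherin cannot be told apart there by this design.

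Pdlim5 (chromosome 3, 142239590 to 142395696, GRCm38), a PDZ and LIM adaptor that binds alpha-actinin, stood at 145, 140.1, 141 and 143 CPM in WT 1 to 4 and at 188, 199, 161, 178 and 202 CPM in E-cad-KO 1 to 5. WT samples were close together, and the lowest E-cad-KO sample was above them all (0.38, SE 0.07, edgeR adjusted p = 0.0343). The call held in 2 of 9 fits with a sample left out. Pdlim7, a related adaptor, stood at 55.0, 47.0, 47.1 and 38.8 CPM in WT 1 to 4 and at 67.3, 63.1, 68.7, 59.2 and 52.9 CPM in E-cad-KO 1 to 5. Only E-cad-KO 5 and WT 1 crossed, and Pdlim7 was not called (0.41, SE 0.11, edgeR adjusted p = 0.0880). limma-voom called Pdlim7 (adjusted p = 0.0476).

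**Figure D3:**
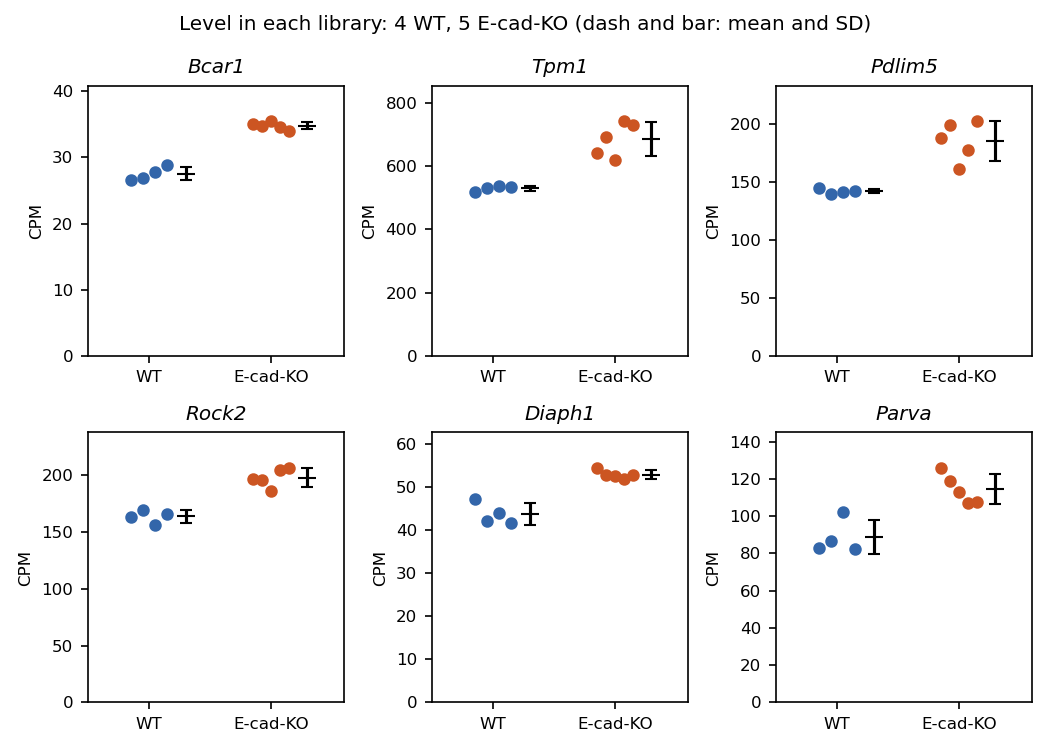
CPM (vertical axis, from 0) in each of 4 WT and 5 E-cad-KO samples for the 5 called genes and Parva, with the mean and SD beside the points. In all 6 panels the E-cad-KO points lie above the WT points, with the smallest SDs in CPM for Bcar1 (27.5 ± 0.99 and 34.8 ± 0.55 CPM).

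Parva, the parvin that joins integrin-linked kinase to actin, lay just outside the threshold (0.37, SE 0.08, edgeR adjusted p = 0.0502). It stood at 83.1, 86.9, 102.4 and 82.5 CPM in WT 1 to 4 and at 126, 119, 113, 107 and 108 CPM in E-cad-KO 1 to 5. The groups were apart, and median-of-ratios scaling, both other filters on low counts and DESeq2 called it. limma-voom (adjusted p = 0.0596) and upper-quartile scaling (edgeR adjusted p = 0.0538) did not, nor did edgeR without robust estimation. With a sample left out Parva was called in 0 of 9 fits. Its partner Ilk stood at 0.14 (SE 0.07, edgeR adjusted p = 0.329), but most of the 2744 annotated exon bases of Ilk are shared with Taf10 on the opposite strand, and with the strand setting of the counting not known this value may mix both genes.

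Zyx and Pxn, which encode zyxin and paxillin of the adhesion plaque, were apart between groups and not called. Zyx stood at 61.6, 50.2, 68.3 and 64.2 CPM in WT 1 to 4 and at 87.8, 79.7, 77.5, 76.2 and 69.2 CPM in E-cad-KO 1 to 5 (0.36, SE 0.09, edgeR adjusted p = 0.0919). Pxn stood at 71.4, 63.3, 67.9 and 57.5 CPM in WT 1 to 4 and at 74.9, 85.3, 81.5, 73.0 and 74.7 CPM in E-cad-KO 1 to 5 (0.26, SE 0.07, edgeR adjusted p = 0.112). For both, the closest samples of the 2 groups differed by under 2 CPM. The talin gene Tln1, whose product joins integrins to actin, stood at 0.15 (SE 0.08, edgeR adjusted p = 0.382).

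For 13 of the 41 genes, annotated exons are shared in part with an oppositely transcribed gene, among them Tpm4, Actn4, Cfl1, Evl, Ezr, Msn, Tln1 and Zyx. None of the 5 called genes is among the 13.

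Shares within families compare related genes inside each library, so that library scaling drops out. For 10 families the share of 1 gene was taken per kilobase of annotated exon and compared by an exact two-sided permutation test over the 9 samples (126 arrangements, smallest possible p = 0.00794), adjusted over the 10. A single family at that smallest p would still miss the threshold after adjustment, so the design could not call 1 family alone. None passed, and 1 had an unadjusted p under 0.05. That 1 was Myl12a, with 69.3% ± 0.771 of the Myl12a and Myl12b sum in WT and 70.8% ± 1.12 in E-cad-KO (SD, n = 4 and n = 5; exact permutation p = 0.0476, adjusted p = 0.191), a pair whose counts are hard to divide, as said above. Myh9 made up 73.1% ± 0.808 and 74.8% ± 1.10 of the heavy chains in WT and E-cad-KO (SD, n = 4 and n = 5; adjusted exact permutation p = 0.191). Actb held 45.1% ± 1.30 and 45.3% ± 2.12 of the 2 actins (SD, n = 4 and n = 5; adjusted exact permutation p = 0.889).

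Other families also overlapped between groups. Tpm1 made up 14.4% ± 1.28 of tropomyosin in WT and 15.6% ± 0.760 in E-cad-KO (SD, n = 4 and n = 5; adjusted exact permutation p = 0.212), with Tpm4 dominant in both (74.4% and 73.2%). Actn1 held 19.8% ± 2.39 and 22.4% ± 0.764 of the alpha-actinins (SD, n = 4 and n = 5; adjusted exact permutation p = 0.191). Rock1 held 28.5% ± 2.47 and 27.0% ± 1.13 of the ROCK sum (SD, n = 4 and n = 5; adjusted exact permutation p = 0.337), and a difference in response between Rock2 and Rock1 was thus not shown. The adjusted exact permutation p was also 0.191 for Cnn2 (42.4% and 46.4%) and Ezr (35.2% and 38.1%), 0.238 for Vasp (73.0% and 75.1%) and 0.838 for Limk1 (8.28% and 6.86%). Radixin's share of the ezrin family, looked at only after these values were seen and not tested, was 27.2% ± 0.930 in WT and 24.2% ± 0.754 in E-cad-KO (SD, n = 4 and n = 5).

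**Figure D4:**
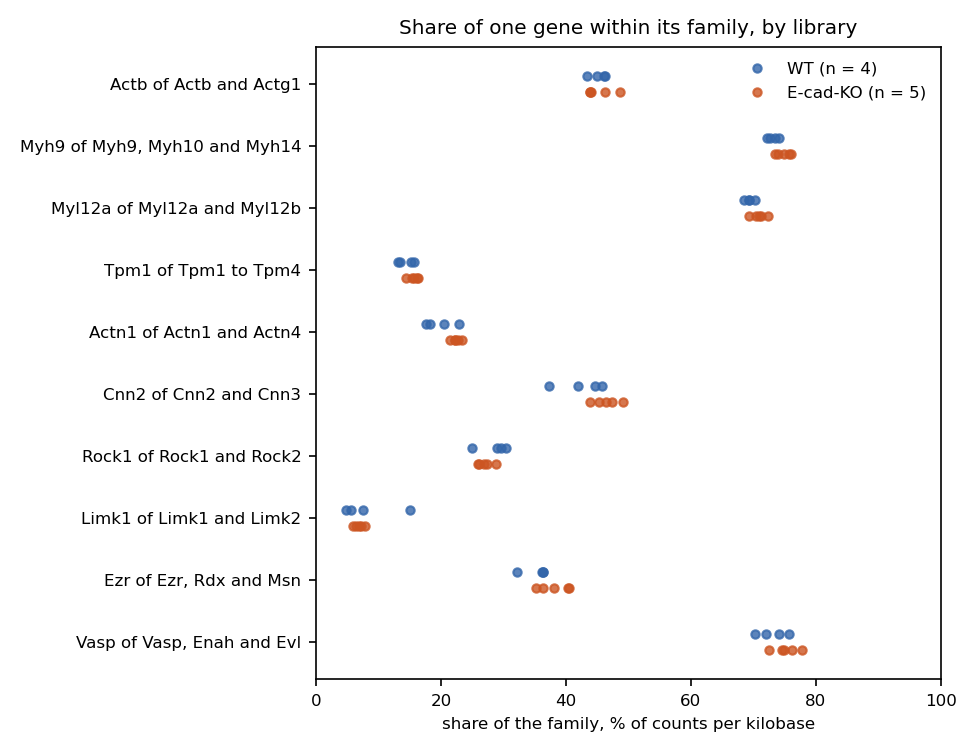
Share of 1 gene within its family (horizontal axis, percent of summed counts per kilobase) in each of 4 WT and 5 E-cad-KO libraries, for 10 families. The groups overlap in every family, and the widest spread within a group is that of Limk1 in WT, from 4.87% to 15.1%.

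Neighbouring parts of the pathway, taken from lists of genes outside the 41, mostly stood above 0 with few calls. Over all genes tested, 48.0% were positive and 1.41% were called, so lists this short would hold few or no calls at that share. Among SRF, its cofactors and classical SRF targets, 10 of 15 were positive (median 0.17) and 1 was called, Srf itself. At an unadjusted p under 0.05 by edgeR, 6 of 15 were higher and 0 lower, against 8.74% and 7.99% of all genes. In 3 of 15 every E-cad-KO sample lay above every WT sample, against 4.28% of all genes. Srf stood at 39.4, 45.6, 49.0 and 41.3 CPM in WT 1 to 4 and at 58.6, 51.8, 58.5, 56.3 and 56.2 CPM in E-cad-KO 1 to 5 (0.36, SE 0.07, edgeR adjusted p = 0.0421). The smooth-muscle SRF targets Acta2, Tagln and Cnn1, also counted among the myoepithelial markers, and Myl9 were among the 5 that were not positive.

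Of other focal adhesion adaptors and kinases 15 of 19 were positive (median 0.13), with 0 called by edgeR and 4 higher at an unadjusted p under 0.05. Over all genes tested, 1.41% were called, and 8.74% were higher and 7.99% lower at an unadjusted p under 0.05. Subunits and activators of the Arp2/3 complex, which nucleates branched filaments, were positive for 14 of 17 (median 0.10), with 0 called by edgeR and 3 higher at an unadjusted p under 0.05. Capping, severing and monomer-binding genes were positive for 14 of 17 (median 0.09), with 0 called by edgeR. Of these, 2 were higher and 1 lower at an unadjusted p under 0.05, close to the shares over all genes. The lower one was Twf2, a monomer-binding twinfilin (-0.27, SE 0.06, edgeR adjusted p = 0.0629).

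Markers of macrophages, fibroblasts, endothelial and myoepithelial cells leaned lower in E-cad-KO, but every summed level overlapped between the groups. WT 4 held the highest macrophage, fibroblast and endothelial sums and the lowest myoepithelial and mammary epithelial sums. The log2 fold change was negative for 12 of 14 macrophage markers (median -0.58), 7 of 10 fibroblast markers (median -0.32), all 7 endothelial markers tested (median -0.65) and 9 of 10 myoepithelial and smooth muscle markers (median -0.22). For the 8 mammary epithelial markers it was positive in 5 and negative in 3, and ran from -0.57 to 0.44. Their median was 0.23, beside the 0.25 of the 41 genes. Summed macrophage markers ran from 385 to 559 CPM in WT and from 348 to 420.4 CPM in E-cad-KO, with 12 of 14 highest in WT 4. In WT 1 to 3 the sum was 385, 436 and 385 CPM. Cd14, a large part of that sum in the other samples, was itself lowest in WT 4. Fibroblast markers ran from 67.4 to 381 CPM and from 137 to 232 CPM, and endothelial markers from 5.57 to 14.5 CPM and from 4.17 to 8.19 CPM. The fibroblast sums of WT 1 (67.4 CPM) and WT 2 (129.9 CPM) lay below every E-cad-KO sample. Those of WT 3 (330 CPM) and WT 4 (381 CPM) lay above every E-cad-KO sample. Of the 7 T cell markers all were below 1 CPM in every sample, and Cd3e had no count. Summed myoepithelial markers, mostly Krt14 and Krt5, fell from WT 1 to WT 4 (11480, 8026, 5391 and 2429 CPM). In E-cad-KO they ran from 3499 to 7832 CPM, so the groups overlapped. Mammary epithelial markers ran from 3911 to 5470 CPM in WT and from 4651 to 6017 CPM in E-cad-KO. By edgeR 0 of these markers were called, and at an unadjusted p under 0.05, 4 epithelial markers were higher and 1 lower and 2 endothelial markers were lower. Of the epithelial markers, Cldn7 (edgeR adjusted p = 0.0511) and Krt8 (edgeR adjusted p = 0.0530) came closest to the threshold, both higher in E-cad-KO. Fewer cells of a type and less RNA per cell cannot be told apart in these bulk samples, and the part of cell makeup in the differences was not tested beyond leaving out WT 4, or WT 1 with WT 4. Without both, edgeR called 0 of the 41 genes (19 at an unadjusted p under 0.05), 39 of 41 were positive and the median was 0.21. Over all genes that fit called 79 of 17831 (2543 at an unadjusted p under 0.05), against 244 of 17289 with every sample. With fewer WT samples in the fit, the lost calls do not show what part cell makeup had.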

How the data were processed

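The authors deposited raw, unnormalised read counts for each gene. HTSeq, TopHat2 and Bowtie2 with GRCm38 are listed per the submitters' processing notes. Their versions, strand setting and annotation release are not stated in these labels. Per the labels' protocols, libraries were stranded and selected mRNA. Symbols came from the name table (51633 of 51912 IDs matched), and positions and exon lengths from GENCODE M21.

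Genes were tested with edgeR 4.0.16 (R 4.3.3; quasi-likelihood, TMM factors, robust dispersions, filterByExpr, no covariate), with Benjamini-Hochberg adjustment over 17289 genes. A standard error is the log2 fold change divided by the square root of F. Alternatives used DESeq2 1.42.0, limma 3.58.1 (limma-voom with sample quality weights), other scalings and filters, and left-out samples. On simulated counts for this comparison (17289 genes, 200 changed), edgeR recovered 45.5%, 66.7% and 92.4% of changes of 1.5-, 2- and 4-fold, with 4.93% of calls false; DESeq2 had 24.1% and limma-voom 4.32%. Changes below 1.5-fold, the size of those of the called genes, were not simulated, so these rates do not say how often such changes are called. No libraries agreed within sampling noise.

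The genes and lists were chosen with earlier results of these data known. Values in every sample are given for called genes, the 12 smallest p-values and the highest level per length, and Actg1, Fscn1, Msn and Limk1 were added after their values were seen. In other lists, called genes and up to 2 with the smallest p are named; further ones were named after their values were seen. One list of neighbouring pathway genes is not reported here.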

Additional observations from a re-analysis of the deposited data

Results flagged for a closer look

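Over 102 groups of values (41 genes and 10 family shares in each of 2 groups), a sample stood far from the rest of its group in 4, all of them WT 4, and chance flags about 1 in 20. Actn4 stood at 557 CPM in WT 4 against 688 to 708 CPM in the other WT samples. Vasp stood at 74.3 CPM against 99.4 to 104 CPM. Rdx stood at 196 CPM against 218.5 to 219.4 CPM, and the share of Ezr in the ezrin family was 32.1% against 36.2% to 36.3%.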

How the results depend on the processing

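The 5 calls among the 41 genes and the 244 over all genes (157 higher, 87 lower) varied with the setting, while the median log2 fold change of the 41 stayed between 0.21 and 0.28 and no gene of the set was called lower in any fit. DESeq2 called 19 of the 41 and 1206 in all, and limma-voom 8 and 511. Beyond the 5, limma-voom called Myh9, Actn1 and Pdlim7. DESeq2 called these and Tpm3, Flna, Fscn1, Cnn2, Tagln2, Pfn1, Evl, Msn, Zyx, Pxn and Parva. Without WT 1 and WT 4 edgeR called 0 and 79. With 1 sample left out the counts ran from 0 to 4 and from 9 to 334. The other scalings and filters gave 4 to 7 and 213 to 352, and upper-quartile scaling turned the split over all genes to 123 higher and 151 lower. With the replicate number as a block edgeR called 0 of the 41 and 0 of all genes (26 and 2418 at an unadjusted p under 0.05). Same-numbered samples did not deviate together (correlations of -0.324, 0.235, -0.0303 and 0.284 for numbers 1 to 4), so the numbers were not taken as pairs.

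Signs turned for genes near 0. With limma-voom Limk1 was at 0.0525 and Rdx at -0.0085, and with upper-quartile scaling Myl6 was at -0.0093 and Rdx at -0.0155. Without WT 1 and WT 4 Limk1 was at 0.142 and Rdx at -0.0203. With 1 sample left out, log2 fold changes ran from -0.039 to 0.235 for Enah, -0.326 to 0.209 for Limk1, -0.0082 to 0.158 for Limk2 and -0.0226 to 0.0386 for Rdx. The cause was not tested. The difference in the share of Actb (E-cad-KO minus WT, percentage points) was -0.146 without WT 1 and WT 4 and ran from -0.657 to 0.559 with 1 sample left out. For Limk1 it was 0.294 and ran from -2.55 to 0.861.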
